A study of Mus musculus with 6 samples.

Results

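Branched-chain amino acid (BCAA) catabolism was followed through 10 genes in white adipose tissues (WATs) of mice with and without neurotensin receptor 2 in their adipocytes. Bcat1 and Bcat2 encode the aminotransferases, Bckdha, Bckdhb and Dbt encode subunits of the branched-chain ketoacid dehydrogenase (BCKDH) complex, Bckdk and Ppm1k encode its kinase and phosphatase, and Ivd, Mccc1 and Mccc2 act further down the leucine arm. They are 10 of the 21456 genes in the table, and all 10 were among the 16157 genes tested, which had a mean of at least 10 normalized counts. The genes were chosen by name and role with earlier results of these same mice known, so their differences between the genotypes are a description. Counts of those called in the fits over all genes stand beside the share of all genes called, and nothing is read from them.

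Leucine, isoleucine and valine are first stripped of their amino group by a branched-chain aminotransferase, BCAT1 in the cytosol or BCAT2 in mitochondria. The resulting ketoacids are then committed to oxidation by the BCKDH complex, built from E1 (BCKDHA and BCKDHB), E2 (DBT) and E3 (DLD). BCKDK phosphorylates BCKDHA and switches the complex off, and PPM1K removes the phosphate and switches it on. Adipocytes increase BCAA oxidation as they differentiate, and its carbon feeds the citric acid cycle and lipid synthesis.

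The RNA came from WATs of chow-fed animals, 3 of them controls (genotype Ntsr2 flox/flox) and 3 of them Ntsr2 AKO (Adipoq-cre::Ntsr2 flox/flox). Both groups thus carried the floxed allele, and only the Ntsr2 AKO group carried the Cre transgene. Adipoq-cre is active in adipocytes of white and brown fat alike, and the other cells of the tissue keep Ntsr2. The depot, the sex and the age of these mice are not given for the RNA-seq in the sources used here. Ntsr2 itself, the check of the genotypes, was at 83.8, 64.0 and 152.5 normalized counts in control mice 3, 4 and 5, and at 3.10, 8.29 and 0 in Ntsr2 AKO mice 3, 4 and 5.

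A normalized count is the read count of a gene divided by a size factor of its mouse. Whole reads could be recovered from every value, and their totals were 60405373 to 66098226 in controls against 54085088 to 56268725 in Ntsr2 AKO mice, with no overlap in depth. Adipocyte markers were abundant in all 6 mice, with 8 marker genes summing to between 2308657 and 3355013 normalized counts. Skeletal muscle markers set some libraries apart. All 8 of them together reached 2328672 in control 5, 163656 in Ntsr2 AKO 5 and 74950 in Ntsr2 AKO 4, against 371 to 1425 in the other mice. Summed markers of macrophages, stromal progenitors, endothelial cells, mesothelial cells and lymphocytes overlapped between the genotypes, while epithelial markers were at 7.22 to 169 among controls and at 0 to 5.18 in the Ntsr2 AKO group. In such bulk tissue, fewer cells of a type and less RNA per cell cannot be told apart. Nothing in the labels says how the 3 mice of a group were related, and any p-value measures only the spread between these mice.

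The BCAA genes spanned a wide range of levels in control WATs, with the aminotransferase Bcat2, the E1 subunit Bckdha and the leucine enzyme Ivd at the top and Bcat1 and Ppm1k at the bottom. Levels were compared between genes as normalized counts per kilobase of merged exons. Bckdha had 7340 ± 582 per kilobase (SD, n = 3), Bcat2 had 4713 ± 910 and Ivd, the isovaleryl-CoA dehydrogenase, had 4517 ± 431. Mccc2 and Mccc1 encode the beta and alpha subunits of methylcrotonyl-CoA carboxylase. The middle of the order was held by Mccc2 at 3206 ± 355, Bckdhb at 3071 ± 246 and Dbt at 2477 ± 129 per kilobase. Below them came Mccc1 at 1193 ± 156 and Bckdk at 1077 ± 161, and then a wide gap led to Ppm1k at 157 ± 22.8 and Bcat1 at 149 ± 71.3. The ranges over control mice overlapped between Bcat2 and Ivd, Mccc2 and Bckdhb, Mccc1 and Bckdk, and Ppm1k and Bcat1, so the order within these pairs was not beyond the spread. With the longest transcript as the length, Bcat2 came first at 8832 ± 1705 and Bckdha second at 7340 ± 582, and 6 of the 10 ranks were kept. The kinase transcript was thus several times more abundant per kilobase than the phosphatase transcript, with a Ppm1k to Bckdk ratio per kilobase of 0.146 among controls against 0.225 in Ntsr2 AKO mice. Bckdhb was at rank 5 in control mice and at rank 3 in Ntsr2 AKO mice, where it had 4479 ± 226 per kilobase and its range overlapped that of Bcat2. With the longest transcript it was at rank 4 there.

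**Figure D1:**
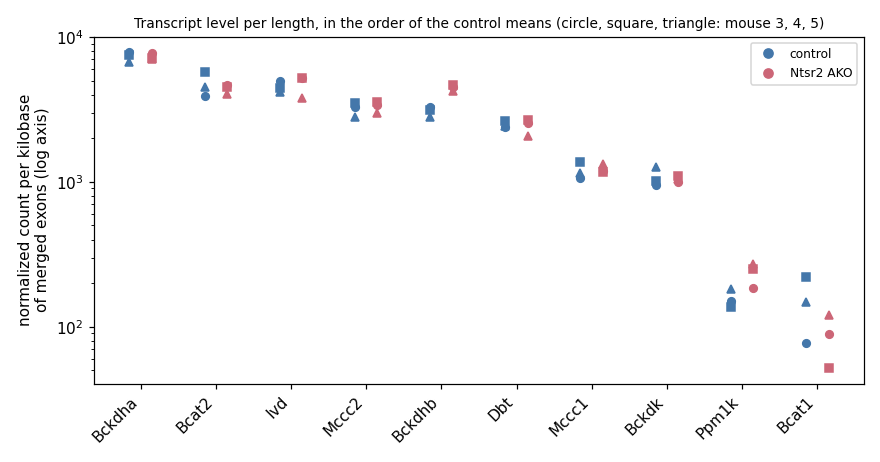
Normalized count per kilobase of merged exons (log axis) for the 10 BCAA catabolism genes in each control (blue) and Ntsr2 AKO (red) mouse, ordered by the control mean. Bckdha led with a control mean of 7340, Ppm1k (157) and Bcat1 (149) were lowest, and the Ntsr2 AKO points of Bckdhb lay above its control points.

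Between the genotypes, 2 of the 10 genes had all Ntsr2 AKO mice above all controls, and these were Bckdhb and Ppm1k. This pattern was held by 6.82% of all genes tested. None of the 10 genes (0) had all Ntsr2 AKO mice below all controls, which 8.16% of all genes showed. In the limma fit over all genes, 0 of the 10 genes were called at an adjusted p of 0.05, beside 0.00619% of all genes (1 gene), and 2 of the 10 had an unadjusted p under 0.05, as did 1349 of the 16157 genes. The same fit did not call the deleted gene Ntsr2 either (log2 fold change -4.81, limma adjusted p = 0.499). A gene that was not called is therefore not shown to be unchanged. edgeR called 0 genes in all, with 1323 at an unadjusted p under 0.05. DESeq2 on the recovered reads called 1 of the 10, Bckdhb, beside 1.36% of all genes. The median log2 fold change of the 10 genes was 0.02, against -0.01 for all genes, and 7 of the 10 lay within 0.15 of 0. Reads of the 10 genes made up 0.165% ± 0.014 of a control library and 0.181% ± 0.013 of an Ntsr2 AKO library (SD, n = 3), and the ranges overlapped.

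**Figure D2:**
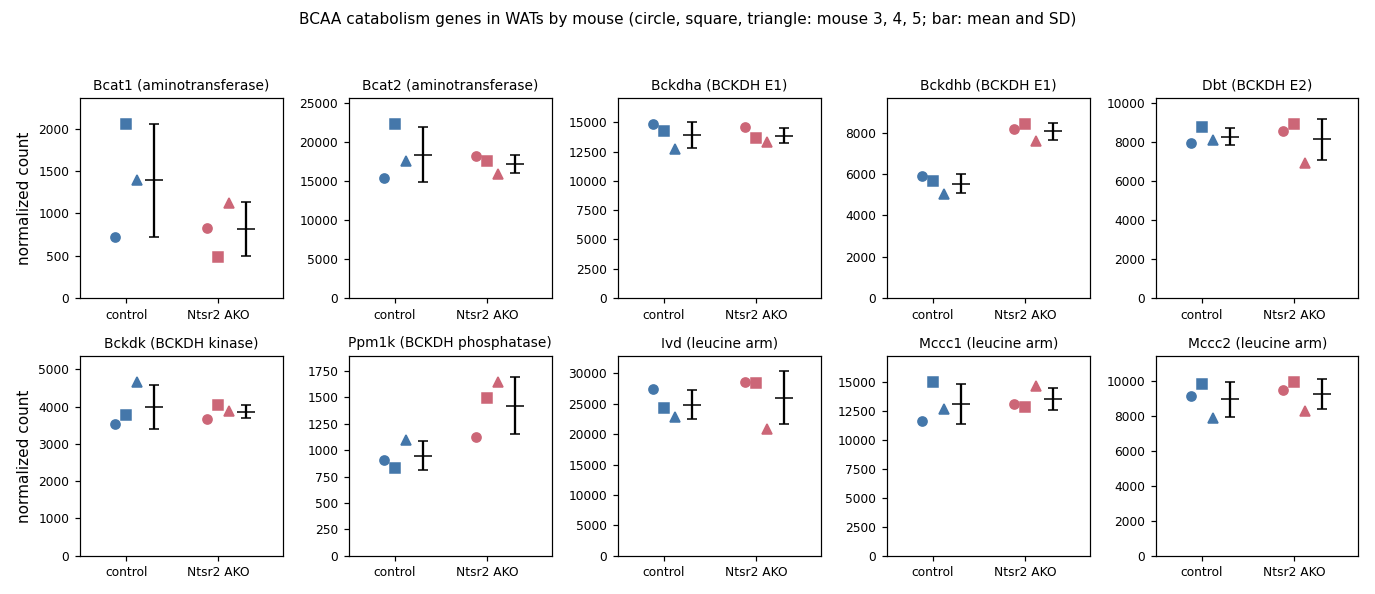
Normalized counts of the 10 BCAA catabolism genes in control (blue) and Ntsr2 AKO (red) mice, with each mouse as a point and the mean and SD as a bar. The groups were separate for Bckdhb (5043 to 5893 against 7631 to 8424) and Ppm1k (830 to 1097 against 1123 to 1643) and overlapped for the other 8 genes.

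Within the BCKDH complex, the difference lay in the E1 beta subunit, while E1 alpha and E2 overlapped between the genotypes. Bckdhb (chr9:83925145-84124240, plus strand, GRCm38, 11 exons in its longest coding transcript) had 5893, 5694 and 5043 normalized counts in control mice 3, 4 and 5. It had 8199, 8424 and 7631 in Ntsr2 AKO mice 3, 4 and 5. The lowest Ntsr2 AKO mouse was well above the highest control, and the groups did not overlap. The means were 5543 ± 445 and 8084 ± 409 (SD, n = 3), so the Ntsr2 AKO mean was 146% of the control mean, a log2 fold change of 0.55 (SE 0.11). Of all genes tested, 9.28% had a larger log2 fold change than Bckdhb.

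Bckdha (chr7:25629946-25658981, minus strand, 9 exons), which carries the phosphorylation sites of the complex, had 14840, 14269 and 12704 normalized counts in control mice 3, 4 and 5. It had 14628, 13664 and 13347 in Ntsr2 AKO mice 3, 4 and 5. The groups overlapped nearly completely, and the log2 fold change was -0.00 (SE 0.12). Bckdha shares 1171 of its 1899 exonic bases with B3gnt8 on the other strand, and the library kit is not stated to keep the strand. B3gnt8 had 36.1 to 69.0 normalized counts among controls and 68.8 to 108 in Ntsr2 AKO mice. The part of its reads in the Bckdha counts was not tested. Dbt (chr3:116513070-116549981, plus strand, 11 exons), the E2 core on which the complex is assembled, had 7964, 8782 and 8131 in control mice, against 8587, 8926 and 6948 in Ntsr2 AKO mice 3, 4 and 5. Ntsr2 AKO 5 held the lowest Dbt value and Ntsr2 AKO 4 the highest, and the log2 fold change was -0.03 (SE 0.13).

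Ratios taken within a mouse do not depend on the size factors. The ratio of Bckdhb to Bckdha normalized counts was 0.397, 0.399 and 0.397 in control mice 3, 4 and 5, and 0.560, 0.616 and 0.572 in Ntsr2 AKO mice 3, 4 and 5. The 3 control mice nearly coincided (SD 0.00116, against 0.0296 in Ntsr2 AKO mice), and the ratio in Ntsr2 AKO mice was 1.46 times theirs without overlap. Since Bckdha itself overlapped between the groups, this ratio restates the Bckdhb difference and is no separate evidence. Relative to Dbt, Bckdhb was at 0.740, 0.648 and 0.620 in control mice, against 0.955, 0.944 and 1.098 in Ntsr2 AKO mice, again without overlap. By contrast, the ratio of Dbt to Bckdha spanned 0.537 to 0.640 among controls, inside the 0.521 to 0.653 of Ntsr2 AKO mice. In these mice the ratio of the E1 transcripts thus separated the groups, through Bckdhb, and that of E2 to E1 alpha did not. No ratio was tested. Per kilobase of merged exons, Bckdhb stood at 0.418 of Bckdha among controls and at 0.613 in Ntsr2 AKO mice.

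**Figure D3:**
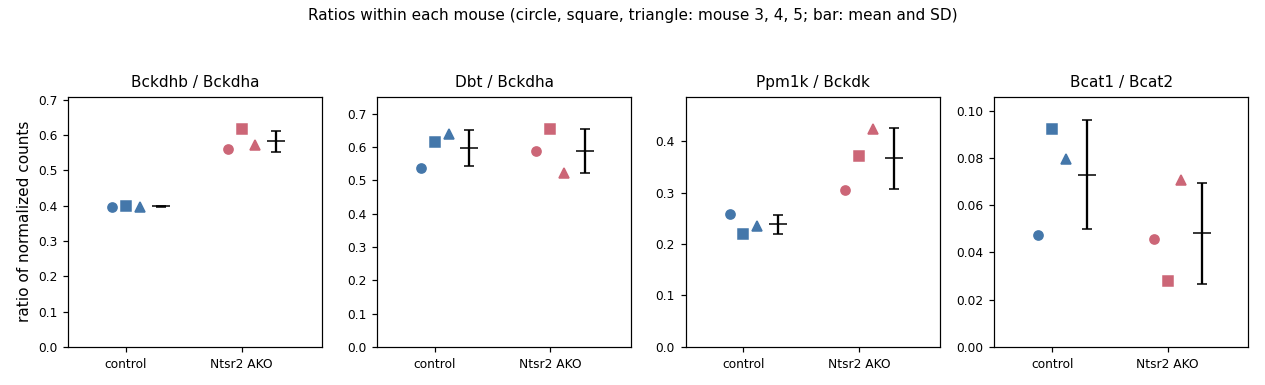
Ratios of normalized counts within each control (blue) and Ntsr2 AKO (red) mouse, with the mean and SD as a bar. Bckdhb over Bckdha (means 0.398 and 0.583) and Ppm1k over Bckdk (0.238 and 0.366) were separate between the groups, and Dbt over Bckdha (0.597 and 0.587) and Bcat1 over Bcat2 (0.0730 and 0.0481) overlapped.

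The summed brown adipocyte markers were also separate between the groups, through 1 gene. The 5 of them summed to 2379 to 4674 normalized counts among controls against 4819 to 7064 in Ntsr2 AKO mice, a sum made mostly of Cidea. Cidea was the only 1 of the 5 with all Ntsr2 AKO mice above all controls, beside 6.82% of all genes tested. Ucp1, the defining uncoupling protein of brown fat, stayed at 0 to 55.7 and overlapped, as did Dio2, Cox7a1 and Ppara. Log2 fold changes were 1.83 for Ucp1, 0.59 for Ppara, 0.20 for Dio2 and -0.32 for Cox7a1. The Dio2 mean of Ntsr2 AKO mice was nevertheless 81.0% of control. Of the 5 markers, 4 had a log2 fold change above 0 and 1 below. The part of these transcripts in the Bckdhb result was not tested. Among control 3, control 4 and Ntsr2 AKO 3, the mice with few skeletal muscle transcripts, the Bckdhb log2 difference was 0.50, a value without a test that rests on 1 Ntsr2 AKO mouse.

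Of the switch on the complex, the phosphatase was higher in all Ntsr2 AKO mice and the kinase overlapped. Ppm1k (chr6:57506502-57535468, minus strand, 7 exons) had 908, 830 and 1097 normalized counts in control mice 3, 4 and 5. Its counts in Ntsr2 AKO mice 3, 4 and 5 were 1123, 1498 and 1643. The groups were separate, but control 5 and Ntsr2 AKO 3 nearly touched. The means were 945 ± 137 and 1421 ± 268 (SD, n = 3), so the Ntsr2 AKO mean was 150% of the control mean, with a log2 fold change of 0.58 (SE 0.19). Bckdk (chr7:127904082-127910221, plus strand, 12 exons) had 3521, 3769 and 4652 in control mice, against 3678, 4040 and 3881 in Ntsr2 AKO mice, with a log2 fold change of -0.03 (SE 0.14). The Ppm1k to Bckdk ratio was 0.258, 0.220 and 0.236 in control mice 3, 4 and 5 and 0.305, 0.371 and 0.423 in Ntsr2 AKO mice 3, 4 and 5. It was 1.53 times higher in Ntsr2 AKO mice without overlap, whereas the ratio of Ppm1k to Dbt overlapped.

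Within each group, Ppm1k followed the order of the skeletal muscle markers, which were 902, 371 and 2328672 in control mice 3, 4 and 5 and 1425, 74950 and 163656 in Ntsr2 AKO mice 3, 4 and 5. Among the mice with few of these transcripts, control 3, control 4 and Ntsr2 AKO 3, the Ppm1k log2 difference was 0.37. That value has no test, since it rests on 1 Ntsr2 AKO mouse. The part of muscle RNA in the Ppm1k difference was not tested.

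**Figure D4:**
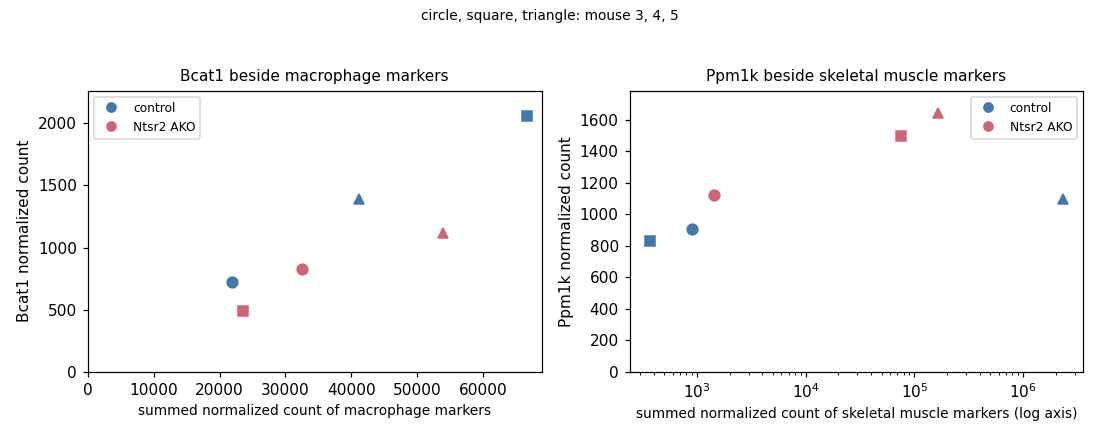
Left, Bcat1 normalized count against the summed normalized count of macrophage markers, and right, Ppm1k against that of skeletal muscle markers (log axis), for control (blue) and Ntsr2 AKO (red) mice. Within each group both genes followed the order of the marker sums, and control 5 combined the highest muscle sum (2328672) with a Ppm1k count of 1097.

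The promoters of Bckdhb and Ppm1k are shown because these 2 genes separated the groups, with that of Bckdha, the E1 partner of Bckdhb, whose groups overlapped, beside them. Each is the RefSeq window on GRCm38.p6 from 250 bases before to 50 bases after the start, printed 5′ to 3′ on the strand of the gene, with capitals for every match to a motif on either strand. For Bckdhb, the more upstream of 2 listed windows is printed. A window was found for 9 of the 10 genes, all but Dbt.
Bckdhb (chr9:83924887-83925186, plus strand): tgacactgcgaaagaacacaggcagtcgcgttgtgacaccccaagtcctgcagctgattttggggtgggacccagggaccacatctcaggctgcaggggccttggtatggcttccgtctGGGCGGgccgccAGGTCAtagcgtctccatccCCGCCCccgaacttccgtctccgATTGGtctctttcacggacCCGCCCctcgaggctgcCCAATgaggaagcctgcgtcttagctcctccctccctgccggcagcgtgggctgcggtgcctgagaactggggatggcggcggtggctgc
Ppm1k (chr6:57535438-57535737, minus strand): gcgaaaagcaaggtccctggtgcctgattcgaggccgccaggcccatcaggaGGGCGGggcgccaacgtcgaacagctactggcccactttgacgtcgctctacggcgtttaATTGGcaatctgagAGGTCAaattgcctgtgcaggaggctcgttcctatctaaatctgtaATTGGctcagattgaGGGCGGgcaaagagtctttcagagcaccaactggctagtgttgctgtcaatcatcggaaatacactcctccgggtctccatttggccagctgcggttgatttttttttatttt
Bckdha (chr7:25658712-25659011, minus strand): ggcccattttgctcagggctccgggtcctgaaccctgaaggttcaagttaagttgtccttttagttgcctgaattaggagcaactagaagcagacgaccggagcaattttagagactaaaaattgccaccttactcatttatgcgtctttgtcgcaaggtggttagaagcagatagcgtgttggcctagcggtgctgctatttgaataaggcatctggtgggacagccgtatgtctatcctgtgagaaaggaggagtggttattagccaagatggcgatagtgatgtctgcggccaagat

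Exact matches to 7 motifs were counted on both strands of 32851 promoter windows of the same length. The motifs were the CCAAT box (CCAAT, in 37.4% of windows), the GC box (GGGCGG, 35.7%), the nuclear receptor half-site (AGGTCA, 16.3%), the E-box (CACGTG, 7.15%), the NRF1 core (GCGCATGC, 2.71%), the cAMP response element (TGACGTCA, 1.79%) and a C/EBP-ATF composite site (TGATGCAA, 0.895%). The Bckdhb window held 2 CCAAT boxes, 3 GC boxes and 1 nuclear receptor half-site, and the Ppm1k window held 2, 2 and 1 of them. All 3 motifs together occurred in 1.43% of windows. This set of 3 is the one seen in the printed Bckdhb and Ppm1k windows, so that share is a description and not a test. The other Bckdhb window held 1 CCAAT box and no other match. The Bckdha window held no match (0) to any of the 7. None of the matches in these windows overlapped another (0 overlapping pairs). GC content was 65.0% in the Bckdhb window, 52.7% in that of Ppm1k and 48.0% in that of Bckdha, against a median of 52.7% over all windows. Ivd, Mccc1 and Mccc2, whose groups overlapped, each had 4 matches in their window. Among the 9 genes with a window, 7 held a CCAAT box, 3 a GC box, 3 a nuclear receptor half-site and 1 an E-box. These counts are per gene, over both windows of Bcat1, Bcat2 and Bckdhb, while the percentages above are per single window. These matches describe the letters of the windows, and no binding was measured.

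The aminotransferases overlapped between the genotypes. Bcat2 (chr7:45570153-45589711, plus strand, 11 exons), the mitochondrial enzyme and by far the more abundant in WATs, had 15333, 22275 and 17530 normalized counts in control mice 3, 4 and 5 and 18190, 17512 and 15836 in Ntsr2 AKO mice 3, 4 and 5. Its log2 fold change was -0.08 (SE 0.16), and an antisense gene that shares 622 of its exonic bases, 0610005C13Rik, had 29.9 to 95.9 normalized counts. Bcat1 (chr6:144993835-145076184, minus strand, 11 exons), the cytosolic enzyme, had 725, 2055 and 1393 in control mice, against 831, 486 and 1120 in Ntsr2 AKO mice 3, 4 and 5. Its means were 1391 ± 665 and 812 ± 318 (SD, n = 3) and its log2 fold change was -0.73 (SE 0.45), the widest spread between mice of any of the 10 genes. Control 3 lay below Ntsr2 AKO 3 and 5, so the groups overlapped.

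Bcat1 followed the summed macrophage markers within each group, but not every single marker. The 5 markers present in the table (Cd68, Csf1r, Mrc1, Lyz2 and Cd14, of 6 on the list) summed to 21945, 66659 and 41213 normalized counts in control mice 3, 4 and 5 and to 32566, 23484 and 53891 in Ntsr2 AKO mice 3, 4 and 5. Control 3 and Ntsr2 AKO 4 thus had the lowest marker sum and the lowest Bcat1 of their groups, and control 4 and Ntsr2 AKO 5 the highest of both. Csf1r, Mrc1 and Lyz2 each had the order of Bcat1 in both groups. Cd14 had it in neither group, and Cd68 had it among controls but not among Ntsr2 AKO mice. The part of macrophage RNA in the Bcat1 values was not tested. The ratio of Bcat1 to Bcat2 spanned 0.0473 to 0.0923 among controls and 0.0278 to 0.0707 in Ntsr2 AKO mice.

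The leucine arm overlapped between the genotypes throughout. Ivd (chr2:118861954-118882909, plus strand, 12 exons), which oxidises isovaleryl-CoA, had 27478, 24268 and 22850 normalized counts in control mice 3, 4 and 5 and 28549, 28485 and 20935 in Ntsr2 AKO mice 3, 4 and 5. Ntsr2 AKO 5 was the lowest of all 6 mice for Ivd and for Dbt. Mccc1 (chr3:35959312-36000678, minus strand, 19 exons), the biotin-carrying subunit of the carboxylase, spanned 11637 to 14951 among controls, around the 12799 to 14602 of Ntsr2 AKO mice. Its partner Mccc2 (chr13:99948530-100015639, minus strand, 17 exons) spanned 7905 to 9866 among controls and 8330 to 9954 in the Ntsr2 AKO group. The log2 fold changes were 0.05 for Ivd (SE 0.17), for Mccc1 (SE 0.14) and for Mccc2 (SE 0.13). The ratio of the carboxylase subunits, Mccc1 to Mccc2, lay at 1.27 to 1.60 among controls and at 1.29 to 1.75 in the Ntsr2 AKO group.

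Around the 10 genes, a list of 24 further genes of BCAA uptake and oxidation was examined, and all 24 were tested. In limma 0 were called in either direction, beside 0.00619% of all genes, and DESeq2 called 1, Slc7a5, beside 1.36% of all genes. Their median log2 fold change was 0.09, with 16 above 0 and 8 below. None had all Ntsr2 AKO mice above all controls (0 of 24, beside 6.82% of all genes), and 1 had them all below (beside 8.16%). The 4 valine genes had log2 fold changes of 0.09 to 0.17 and the 4 isoleucine genes of 0.04 to 0.21, all with overlapping groups. In the propionate arm 2 genes were above 0 and 2 below, with Mcee, the methylmalonyl-CoA epimerase, at 0.34 (SE 0.23).

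Amino acid transporters at the plasma membrane held the largest differences of this list. Slc7a5 (LAT1, the light chain of a large neutral amino acid exchanger) had 289, 474 and 388 normalized counts in control mice 3, 4 and 5 and 155, 93.3 and 144 in Ntsr2 AKO mice 3, 4 and 5. The highest Ntsr2 AKO mouse lay below the lowest control, at a log2 fold change of -1.55 (SE 0.30), which missed the threshold in limma (adjusted p = 0.499) and passed it in DESeq2 (adjusted p = 0.00119). Over all settings tried, its adjusted p ran from 0.00119 to 0.974. Slc3a2 (CD98, the heavy chain that pairs with LAT1 and LAT2) had 7933, 8088 and 6728 in control mice, against 6858, 4669 and 4035 in Ntsr2 AKO mice 3, 4 and 5. Ntsr2 AKO 3 lay inside the control range, and the log2 fold change was -0.58 (SE 0.21, limma adjusted p = 0.565). Slc7a8 (LAT2) overlapped as well, at -0.55 (SE 0.31, limma adjusted p = 0.669).

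Other named genes of the list overlapped between the groups. Slc25a44, the mitochondrial BCAA carrier, had 4119, 5332 and 5192 normalized counts in control mice, against 4395, 5645 and 2819 in Ntsr2 AKO mice 3, 4 and 5, with Ntsr2 AKO 5 lowest and a log2 fold change of -0.23 (SE 0.26). Dld, the E3 subunit shared with other 2-oxoacid dehydrogenases, was at 0.15 (SE 0.20). The transporter Slc43a2 was at 0.24 (SE 0.19).

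**Figure D5:**
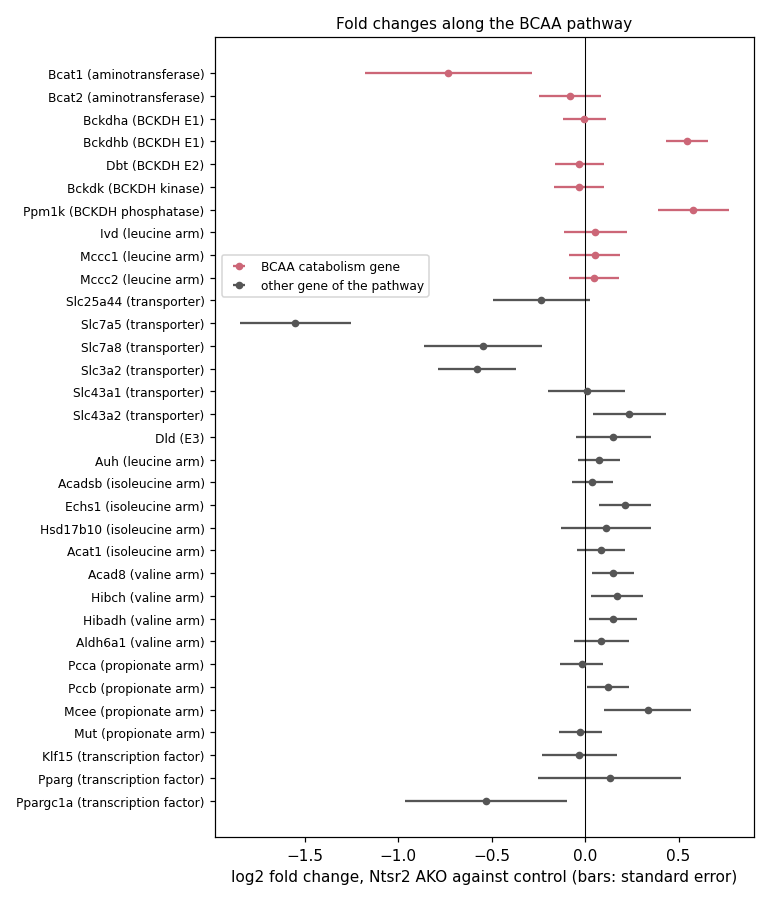
Log2 fold change of Ntsr2 AKO against control mice (x axis) with its standard error (bars) for the 10 BCAA catabolism genes (red) and other genes of the pathway (grey). Bckdhb (0.55) and Ppm1k (0.58) stood to the right of 0, Slc7a5 (-1.55) lay farthest to the left, and the enzymes of the valine and isoleucine arms clustered just above 0.

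The sister complexes offer a comparison, since pyruvate and 2-oxoglutarate dehydrogenase share the architecture of BCKDH. Their 13 genes, kinases and phosphatases included, had a median log2 fold change of -0.11, with 0 called in limma. Pdp2, a pyruvate dehydrogenase phosphatase, was the only 1 of the 13 with all Ntsr2 AKO mice above all controls (beside 6.82% of all genes), at a log2 fold change of 0.31 (SE 0.18). Pdhb, the E1 beta subunit of pyruvate dehydrogenase, had 11043 to 21414 normalized counts among controls and 13370 to 30849 in the Ntsr2 AKO group. Its groups overlapped at a log2 fold change of 0.37 (SE 0.36), and its difference from Bckdhb was not tested. The 14 citric acid cycle genes had a median of 0.05, and 0 of them separated the groups in either direction (beside 6.82% of all genes upward and 8.16% downward).

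The mean profile of the 10 genes over the 6 mice was nearly flat, at -0.13, 0.10 and -0.03 in control mice 3, 4 and 5 and 0.03, 0.01 and 0.02 in Ntsr2 AKO mice 3, 4 and 5 on the centred log2 scale. Among the tested genes outside all gene lists used here, those most like this profile were Ncoa4 (Pearson r = 0.990 over 6 mice), Ccbl2 (0.987), Plcb1 (0.976), Gm24959 (0.974) and Copz1 (0.974). Gm24959 was low, at 2.76 to 16.5 normalized counts. The correlated values share the libraries and their size factors, and the correlations are given as a description.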

How the data were processed

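RNA-seq of WATs from 3 control and 3 Ntsr2 AKO mice was used. The authors trimmed reads with Trimmomatic, aligned them with HISAT2 (mm10 in the submitters' processing notes), quantified genes with StringTie and used DESeq2. Versions and the annotation are not given in the sources used here. The deposited signal is a normalized count, the count of a gene divided by a size factor of the mouse, and the authors' division was read from the values. Division of each column by its smallest value above 0 gave whole reads for 100% of values (tolerance 1e-06). StringTie derives counts from coverage, so reads are approximate.

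For the 16157 genes with a mean of at least 10, log2(normalized count + 1) was fitted with limma 3.58.1 under R 4.3.3 (mean-variance trend, no covariates, two-sided). The adjustment was Benjamini-Hochberg, at a threshold of 0.05. A fold change on this scale understates that of low genes. An exact permutation test of 3 against 3 mice cannot go below p = 0.1. The alternatives were edgeR 4.0.16 (quasi-likelihood, TMM) or DESeq2 1.42.0 on recovered reads, pseudocounts of 0.1 and 5, no filter, a mean of at least 50, quantile normalization, no trend, a replicate block and leaving out each mouse. The restriction to the mice with few skeletal muscle transcripts was chosen after the data were seen. The scripts were tested on simulated counts.

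The members and gene lists were chosen with earlier results of these data known. Named were all 10 genes, Slc25a44, Dld, the 3 genes of the wider list with the largest log2 fold change in each direction, the 5 genes most like the mean profile, and, after their values were seen, Pdp2, Pdhb, single marker genes and the genes near Bckdhb and Ppm1k. Of these, 1 gene of the wider list is not reported here by name. Positions and lengths are from GENCODE M21 on GRCm38, where 19770 of 21456 gene names were found. Promoters are from RefSeq.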

Additional observations from a re-analysis of the deposited data

How the results depend on the processing

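Over all genes, limma called 1 gene, as it did with either pseudocount, a mean of at least 50 or quantile normalization. The count was 0 with no filter, without the trend, with edgeR and with the replicate block, and 0 when any single mouse was left out. DESeq2 called 220. Of the 10 BCAA genes 0 were called and of the 24 wider genes 0, except with DESeq2, which called 1 of each (Bckdhb and Slc7a5). Such differences between tools were not traced further, and the cause was not tested. The order by level per kilobase kept 6 of 10 ranks with the longest transcript, and 8 without any single control mouse.

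The log2 fold change ran from 0.48 to 0.66 for Bckdhb over 16 alternatives, from 0.37 to 0.74 for Ppm1k and from -1.14 to -0.39 for Bcat1. Of these alternatives, no filter, a mean of at least 50, no trend and the replicate block cannot change the fold change, and left it as it was. The other 7 genes changed sign in some setting. Bckdhb and Ppm1k separated the groups (2 genes) as deposited, after scaling to the column total and after quantile normalization, which moved the median of all genes from -0.01 to 0.05.

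Mouse numbers 3, 4 and 5 occur in both groups. Deviations of same-numbered mice correlated at 0.45, -0.24 and 0.41, and those of differently numbered mice at -0.52 to 0.26. The main fit took the mice as unpaired, and these values do not settle whether the numbers mark pairs or batches. With the replicate block 0 genes were called and 1303 had an unadjusted p under 0.05. A BCAA gene had 469 to 29856 recovered reads in a library, and 3 mice a group limit the precision.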

Other observations

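Genes near Bckdhb and Ppm1k were examined after their values were seen. Within 5 Mb on each side of Bckdhb, 43 other genes were tested, with a median log2 fold change of -0.01. All Ntsr2 AKO mice lay above all controls for 2 of them (Gm3211 and Zfp949) and below for 6, beside 6.82% and 8.16% of all genes. Zfp949 had 652, 775 and 750 normalized counts in control mice 3, 4 and 5, against 2097, 2470 and 1983 in Ntsr2 AKO mice 3, 4 and 5, a log2 fold change of 1.59 (SE 0.14, limma adjusted p = 0.0643). Within 1 Mb, 7 were tested, with a median log2 fold change of 0.23, and 0 of them separated upward and 1 downward (Sh3bgrl2). Around Ppm1k, 40 genes within 5 Mb had a median of 0.03, with 2 above (Avl9 and Scrn1) and 4 below.

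Deviations from the group means differed between genes within a mouse, and a selection of them is given. Ntsr2 AKO 5 was below its group mean on the log2 scale for Ivd (-0.30), Dbt (-0.22) and Mccc2 (-0.15), while it was above for Mccc1 (0.12), Ppm1k (0.23) and Bcat1 (0.54). Control 5 was likewise below for Mccc2 (-0.18), Ivd (-0.12), Bckdha (-0.13) and Bckdhb (-0.13) and above for Bckdk (0.24) and Ppm1k (0.22). Ntsr2 AKO 4 was above its group mean for Ivd (0.15), Dbt (0.14) and Mccc2 (0.11) and below for Bcat1 (-0.66). These 3 libraries held skeletal muscle transcripts. The mice with few of them deviated as well, with Bcat1 at -0.81 in control 3 and 0.69 in control 4. In Ntsr2 AKO 3, Ppm1k was at -0.32 and Ivd at 0.15. The part of muscle transcripts in the deviations was not tested.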
